A study of Octopus bimaculoides with 95 samples.

Results

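RNA sequencing of the California two-spot octopus, Octopus bimaculoides, covered the lobes of its brain, peripheral ganglia and other organs in 95 libraries. The 7 libraries described here were chosen by their tissue labels: 3 of the inferior frontal lobe, 3 of the anterior superior buccal lobe and 1 of the inferior buccal ganglion. All 7 come from whole tissue RNA, and the labels give no age, sex, strain or treatment. They also do not say whether different animals gave the libraries of a lobe. The p-values therefore reflect only how these libraries vary, some of which may be technical.

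In octopuses the inferior frontal lobe belongs to the touch system: it receives chemical and tactile input that comes up from the arms, and it is needed for learning to tell objects apart by touch. The superior buccal lobe is a centre of feeding that lies close by and is connected to the lips and to the buccal mass, the muscular mouth with its beak and radula. The inferior buccal ganglion is a peripheral ganglion of the same feeding system and supplies the muscles of the buccal mass. The question put to the data was which genes set the touch learning lobe apart from the feeding lobe, and on which side of each difference the ganglion lies. The table used here gives most genes as RefSeq IDs with no product name, so genes are called by ID and no function is given for them.

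Levels are in TPM, a transcript unit scaled by length and by library total, after spike-in RNAs were left out and the remainder was rescaled. Spike-in RNAs took 84.3%, 26.4% and 33.5% of the deposited TPM in inferior frontal libraries 1 to 3. In superior buccal libraries 1 to 3 they took 78.1%, 78.7% and 74.2%, and in the ganglion 19.5%. The scale as deposited, an alternative below, omits this rescaling. The part of the spike-in share in differences between the lobes was not tested. Read numbers behind the TPM were recovered from the steps between low values and are lower bounds on depth. The inferior frontal libraries 1 to 3 had 138250, 7479443 and 2840715 recovered reads, the superior buccal libraries 671110, 470316 and 210311, and the ganglion 6214007. Of 13755 genes tested, 53.7%, 87.1% and 82.4% were above 0 in the inferior frontal libraries, against 62.7%, 56.3% and 49.2% in the superior buccal libraries. In the ganglion library the share was 84.7%. A level of 0 in a superior buccal library or in inferior frontal library 1 therefore says less than a 0 in the deep libraries: the median gene with a single read stood at 6.42 TPM in inferior frontal library 1 and at 0.121 TPM in library 2.

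**Figure D1:**
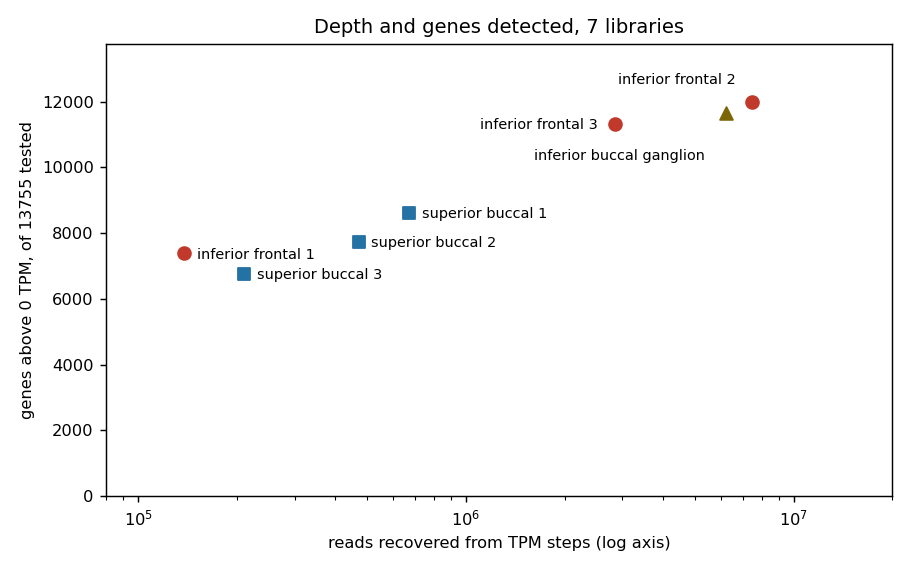
Genes above 0 TPM, of all genes tested, against recovered reads on a log axis, with 1 point for each of the 7 libraries. Inferior frontal libraries 2 and 3 and the ganglion lie at the deep end with 11978, 11329 and 11651 genes, and inferior frontal library 1 lies with the superior buccal libraries at 6767 to 8623 genes.

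Inferior frontal library 1 stood apart from the others of its lobe. Across the 13755 genes its correlation was 0.718 with inferior frontal library 2 and 0.690 with library 3, but 0.758 and 0.741 with superior buccal libraries 1 and 2. Inferior frontal libraries 2 and 3 correlated at 0.902 with each other, and pairs of superior buccal libraries at 0.744 to 0.800. Superior buccal libraries 1 to 3 each correlated most with a library of another tissue, at 0.852, 0.852 and 0.837. This was library 1 of the remaining basal and subfrontal lobes, which was also nearest to inferior frontal library 1, at 0.764. These correlations run across genes, which share library and depth, and are descriptions. A list of 30 genes was high in the anterior salivary gland relative to neural tissues, and some of them were also in the list for buccal muscle. It summed to 29431 TPM in inferior frontal library 1, with 7 of the 30 at 0, against 400.4 and 232.5 TPM in the other libraries of that lobe. In superior buccal libraries the list summed to 281.4 to 7383 TPM. All 7 libraries nevertheless had a neural tissue as nearest library, and of 30 genes typical of neural tissue at most 1 was at 0 in any of them. Each lobe library had a higher median correlation with neural libraries, 0.705 to 0.766, than with non-neural ones, 0.596 to 0.709. In the ganglion library both medians were 0.703. The neural list summed to 26676 to 50283 TPM in the inferior frontal libraries, against 57352 to 116728 TPM in the superior buccal libraries, without overlap. The sums would overlap without its member LOC106868274, at 797, 217 and 6303 TPM against 4748, 38379 and 41673 TPM. In the limma test described below, 4 of the 30 were lower and 2 higher in the inferior frontal lobe at an unadjusted p under 0.05. None of the 30 was called.

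Few genes separated the lobes by the test across all genes. Of 13755 genes tested, the inferior frontal lobe was above the superior buccal lobe in 2 and below it in 1, 0.0218% in all (0.0145% higher, 0.00727% lower). Values of log2(TPM + 1) were fitted with limma, letting the variance follow the mean, over 45 libraries of 15 neural tissues, and a gene was called at a Benjamini-Hochberg adjusted p under 0.05 and a difference of at least 1 on the log2 scale. At an unadjusted p under 0.05, the lobe was above in 1142 genes, 8.3%, and below in 173, 1.26%, together 9.56%. The median difference of all genes was 0.46, and it was 0.40 with median ratio scaling and 0.71 on the scale as deposited. It was 0.16 in a test on recovered reads, 0.035 with the style of sample code as a term in the fit, and -0.044 with quantile scaling. The general lean toward the inferior frontal lobe thus depended on the processing. The number of calls depended on the libraries and on the model. Calls numbered 6 without inferior frontal library 1, 10 without inferior frontal library 2 and 21 without superior buccal library 1. A fit on both lobes alone and a test on recovered reads each called 0 genes, with 1308 and 1301 genes at an unadjusted p under 0.05, and weighting libraries by their quality called 1346.

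**Figure D2:**
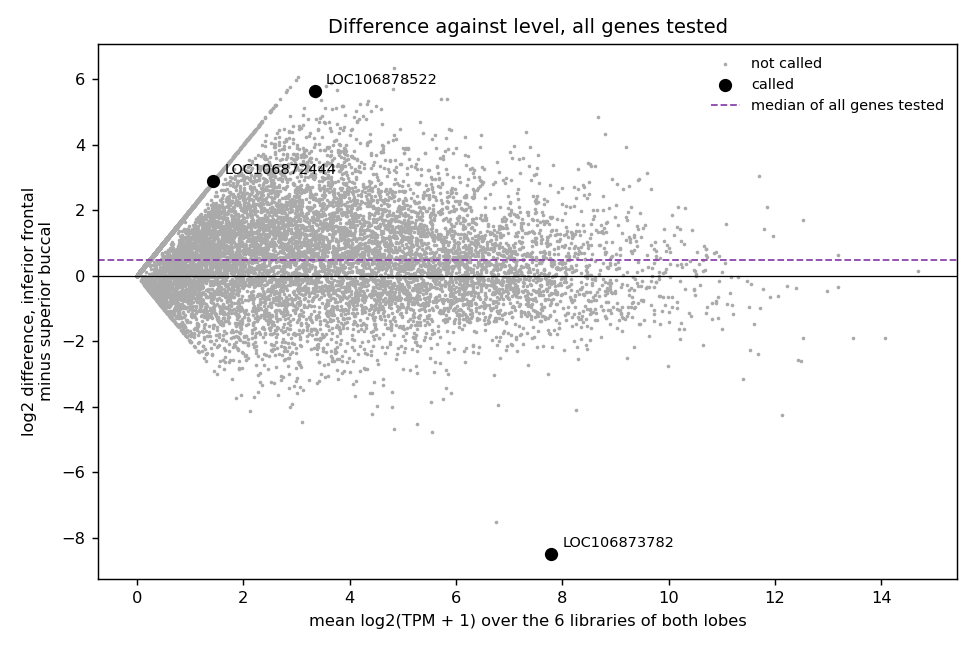
Difference on the log2(TPM + 1) scale, inferior frontal minus superior buccal, against the mean level over the 6 libraries of both lobes, with 1 point for each of 13755 genes. The 3 called genes are black, and the dashed line at 0.46 is the median of all genes; the straight upper and lower edges at low level are genes listed at 0 in every library of a lobe.

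The gene LOC106878522, protein coding, was the called gene with the larger difference among those higher in the inferior frontal lobe. It stood at 63.5, 104 and 53.1 TPM in inferior frontal libraries 1 to 3, on 12, 1227 and 238 reads, against 2.02, 0 and 0 TPM in superior buccal libraries 1 to 3, on 2, 0 and 0 reads. All inferior frontal libraries were above all superior buccal ones, and the ganglion, at 1.99 TPM on 20 reads, lay on the superior buccal side. The difference was 5.63 ± 1.07 (SE, n = 3 each) on the log2(TPM + 1) scale, 5.16 above the median of all genes, with an adjusted p of 0.0251 in limma. It kept its direction in all 22 alternatives but passed in 11 of them, and in 1 of the 6 fits that left out a library; its adjusted p without inferior frontal library 1 was 0.0505. The gene was also higher in the inferior frontal lobe than in the other central lobes, where its highest library reached 19.3 TPM.

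The other gene higher in the inferior frontal lobe was LOC106872444, annotated as a long noncoding RNA. Its levels were 14.5, 2.31 and 6.72 TPM in the inferior frontal libraries, on only 1, 10 and 11 reads, against 0 TPM in all 3 superior buccal libraries and in the ganglion. The limma difference was 2.88 ± 0.38 (SE, n = 3 each), with an adjusted p of 4.1e-05, and it depends on the pseudocount since the superior buccal libraries are at 0. The fit takes its error from all 45 libraries, most of them at 0 for this gene. LOC106872444 passed in 17 of 21 alternatives and in all 6 fits that left out a library. Its call was lost in limma on both lobes alone (adjusted p = 0.181), with voom on recovered reads (0.668) and with label style in the fit (0.0847). In those libraries 3 reads would have been 8.31 to 20.5 TPM, above the inferior frontal mean of 7.84 TPM, so no fold is given and the depth does not show that the RNA is absent there. The ganglion is deep, and the RNA was at 0 there too. In the 27 libraries of the other central lobes it was above 0 in 2, at most at 1.70 TPM.

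On the superior buccal side the called gene was LOC106873782, protein coding. It stood at 0, 47.4 and 31.2 TPM in the inferior frontal libraries, against 239, 20758 and 15432 TPM in the superior buccal libraries, on 128, 8575 and 3353 reads. The lobes did not overlap, but superior buccal library 1 lay far below the other two of its lobe. The ganglion had 3111 TPM on 17003 reads. The gene fell by 8.52 ± 1.52 (SE, n = 3 each) on the log2 scale in the inferior frontal relative to the superior buccal lobe, with an adjusted p of 0.0117 in limma. Of the 15 neural tissues the superior buccal lobe had the highest mean, 12143 TPM, followed by the remaining basal and subfrontal lobes with 1497 TPM. The single posterior subesophageal library had 3986 TPM. The call was lost in 3 of the 6 fits that left out a library, with an adjusted p of 0.136 without inferior frontal library 1.

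Beyond the 3 called genes, the smallest p-values in each direction belonged to genes that did not pass. LOC106878234 had 82.6, 64.2 and 64.4 TPM in inferior frontal libraries, against 3.95, 0 and 0 TPM in superior buccal libraries and 0 TPM in the ganglion (limma, adjusted p = 0.0537). The inferior frontal libraries agreed closely on it, although library 1 held only 4 of its reads. LOC106867670 and LOC106875483 stood at 0 to 17.2 TPM and 2.17 to 5.92 TPM in inferior frontal libraries, and at 0 TPM in all superior buccal libraries (both with an adjusted p of 0.0537 in limma).

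On the lower side, LOC106871860 had 0, 13.6 and 33.8 TPM in inferior frontal libraries, against 73.5, 11348 and 3716 TPM in superior buccal libraries, and 76.8 TPM in the ganglion (limma, adjusted p = 0.0654). It resembled LOC106873782 in its low first superior buccal library, but it was also high in the deep medulla of the optic lobe, at a mean of 6269 TPM. LOC106882736 had 0, 54.7 and 11.7 TPM in inferior frontal libraries, against 75.0, 418 and 455 TPM in superior buccal libraries (limma, adjusted p = 0.113). Its highest mean among the other neural tissues was 533 TPM in the remaining basal and subfrontal lobes. LOC106871922 and LOC106878128 were at 0 in all inferior frontal libraries, against 1.61 to 29.8 TPM and 0 to 25.8 TPM in superior buccal libraries, with adjusted p-values of 0.0537 and 0.182 in limma. Both had their highest level outside the nervous system, in the male gonad, at 114 TPM and 166 TPM.

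**Figure D3:**
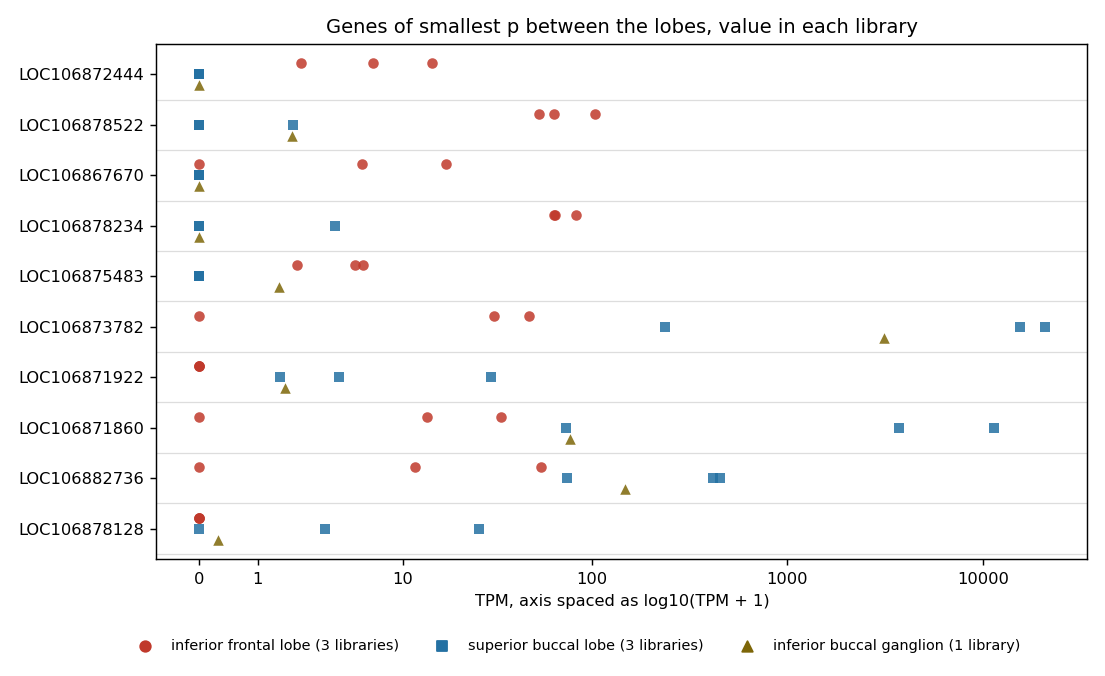
TPM of the 5 genes of smallest p in each direction, in each library, on an axis spaced as log10(TPM + 1); circles are the inferior frontal lobe, squares the superior buccal lobe and triangles the ganglion. The upper 5 genes have a positive and the lower 5 a negative difference, inferior frontal minus superior buccal, and LOC106873782 and LOC106871860 span from 239 to 20758 TPM and from 73.5 to 11348 TPM within the superior buccal lobe alone.

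Setting each lobe against 5 other central lobes (vertical, subvertical, superior frontal, dorsal basal, and remaining basal with subfrontal, 27 libraries) shows on which side a difference lies. The inferior frontal lobe was above these lobes in 17 genes and below them in 4, 0.153% of those tested (0.124% higher, 0.0291% lower). In all 17 the inferior frontal lobe had the highest mean of the 15 neural tissues, against 7.51% of all genes tested. A mean of at least 10 TPM there was reached by 9 of the 17, and in 7 each of its 3 libraries exceeded each of the 27 others. Of the 17, 12 were also higher in each inferior frontal than in each superior buccal library, against 12.2% of all genes tested. The choice of the 17 by these same inferior frontal libraries bears on all of these counts. This comparison shares its inferior frontal libraries with the one above, so the values are given side by side. Its calls numbered 83, with 62 higher and 21 lower, when a stellate ganglion library and a right mediolateral vertical lobe library that stand apart from their tissues were left out, 12 on the scale as deposited, 142 in a test on recovered reads and 928 with quality weights. With label style as a term in the fit the balance turned, to 6 genes higher and 12 lower. Of the 21 genes, 8 kept their call without inferior frontal library 1, 10 without library 2 and 13 without library 3. With label style in the fit 9 of the 21 kept it.

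Of the 17, LOC106878234 and LOC106874429 were called in all 19 alternatives. The difference of LOC106878234 from the other central lobes was 5.22 ± 0.86 (SE) with an adjusted p of 0.00102 in limma. Among the 27 other central libraries 10 were above 0, the highest at 97.3 TPM in 1 library, and the right lateral vertical lobe had the next highest tissue mean at 32.5 TPM. In the RefSeq annotation it lies close to LOC106878238, with 1 gene between them. LOC106878238 was not called, but it had 363, 628 and 670 TPM in inferior frontal libraries, against 84.5, 21.1 and 45.5 TPM in superior buccal libraries, and 50.1 TPM in the ganglion. Its adjusted p against the other central lobes was 0.0558 in limma.

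The most abundant of the 17, LOC106882479, stood at 301, 350 and 381 TPM in inferior frontal libraries, against 41.4, 15.7 and 14.96 TPM in superior buccal libraries, and 35.1 TPM in the ganglion. The spread within the inferior frontal lobe was small, and the median of the other central libraries was 39.3 TPM, close to the ganglion. Its difference from the other central lobes was 3.31 ± 0.65 (SE) with an adjusted p of 0.00999 in limma. It lost its call without any of the inferior frontal libraries, with an adjusted p of up to 0.0931. The call was also lost on the scale as deposited and with label style in the fit. Over all its alternatives the adjusted p reached 0.491.

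LOC106884069 had 174, 314 and 152 TPM in inferior frontal libraries, against 6.64, 0 and 7.03 TPM in superior buccal libraries, and 13.8 TPM in the ganglion. Its highest other tissue mean was 25.6 TPM in the deep optic medulla, and the highest of the 27 other central libraries had 31.2 TPM, so the groups did not overlap. The difference from the other central lobes was 4.89 ± 0.94 (SE; limma, adjusted p = 0.00928), but the call was lost without inferior frontal library 1 (adjusted p = 0.0607), without library 2 (0.105) and with label style in the fit (0.178). LOC106877725 varied more within the lobe, with 24.2, 435 and 76.9 TPM in inferior frontal libraries, against 3.37, 4.37 and 10.4 TPM in superior buccal libraries, and its next highest tissue was the proximal arm cord with 50.8 TPM. LOC106875033 had its highest level in the shallow library, with 88.5, 23.1 and 15.6 TPM in inferior frontal libraries, against 3.02, 2.35 and 0 TPM in superior buccal libraries. Both were called against the other central lobes, with adjusted p-values of 0.0167 and 0.00333 in limma. LOC106877725 lost its call without inferior frontal library 2 (difference 3.10, adjusted p = 0.303) or library 3 (0.0903), and LOC106875033 without library 1 (0.121). Both calls were also lost with label style in the fit.

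LOC106882585, LOC106867190 and LOC106874429 were lower in level. LOC106882585 had 11.5, 15.9 and 8.86 TPM in inferior frontal libraries, against 2.75, 0.715 and 0 TPM in superior buccal libraries. LOC106867190 had 25.7, 14.98 and 9.22 TPM in inferior frontal libraries, against 0, 0 and 6.07 TPM in superior buccal libraries. LOC106874429 had 18.9, 4.37 and 20.7 TPM in inferior frontal libraries, against 1.81, 0 and 4.47 TPM in superior buccal libraries, and reached 137 TPM in the male gonad. The lobes overlapped for LOC106874429 and did not for the other 2. With label style in the fit, LOC106882585 and LOC106867190 lost their calls against the other central lobes. Of the genes described with the smallest p between the lobes, LOC106872444, LOC106867670 and LOC106875483 were also called here, with adjusted p-values of 5.2e-08, 0.000515 and 0.00999 in limma. The other called genes, LOC106879089, LOC106883745, LOC106879820, LOC106881450 and LOC106872465, had inferior frontal means of 3.11 to 6.13 TPM and rested on 0 to 2 reads in inferior frontal library 1. Some had few reads in the deep libraries too. In inferior frontal libraries 1 to 3, LOC106881450 had 1, 0 and 2 reads, LOC106879820 0, 8 and 4, and LOC106867670 2, 0 and 16. These names, beyond those with the smallest p between the lobes, were chosen after their values were seen.

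All 4 genes lower in the inferior frontal lobe than in the other central lobes had means below 20 TPM there. LOC106868937 stood at 7.98, 32.8 and 15.8 TPM in inferior frontal libraries, against a median of 1319 TPM over the 27 other central libraries. It fell by 4.92 ± 0.86 (SE; limma, adjusted p = 0.00246) relative to those lobes. In superior buccal libraries it had 38.1, 795 and 290 TPM, and in the ganglion 308 TPM. LOC106879348 had 0, 1.65 and 1.75 TPM in inferior frontal libraries, against a median of 116 TPM in the other central libraries, and kept its call in all 19 alternatives (limma, adjusted p = 0.000515). LOC106884094 and LOC106871334 had means of 2.10 and 4.28 TPM in the inferior frontal lobe, against medians of 108 and 209 TPM in the other central libraries. The highest tissue means of LOC106868937, LOC106879348 and LOC106871334 were in parts of the vertical lobe, at 2506, 265 and 899 TPM, while that of LOC106884094 was in the subvertical lobe, at 338 TPM. Of the 4 genes, LOC106879348, LOC106868937 and LOC106871334 were also lower in each inferior frontal than in each superior buccal library, against 1.98% of all genes tested. The choice of the 4 bears on this as well, and none of the 4 was called between the lobes.

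**Figure D4:**
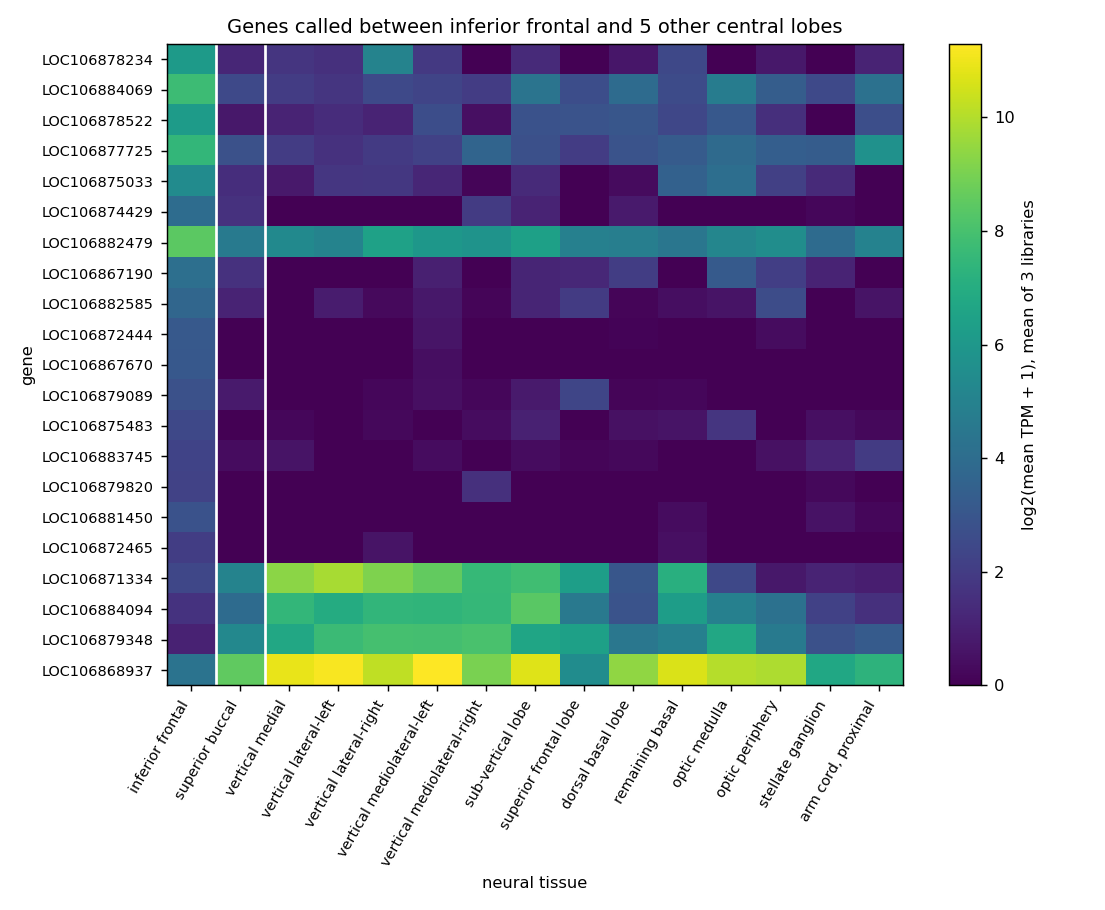
Mean level of the 21 genes called between the inferior frontal and the 5 other central lobes, as log2(mean TPM + 1) over 3 libraries, in 15 neural tissues, with genes in rows ordered by their difference. The first column, the inferior frontal lobe, is the highest of the 15 in the upper 17 rows, and the superior buccal lobe is the second column.

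The superior buccal lobe differed from the 5 other central lobes in 1 called gene, 0.00727% of 13755 tested. This was LOC106871922, whose levels are given above, with a difference of 2.61 ± 0.47 (SE; limma, adjusted p = 0.0348), on 2, 4 and 15 reads in the superior buccal libraries. No gene was called lower by limma, with 645 genes lower, 4.69%, and 266 higher, 1.93%, at an unadjusted p under 0.05. The call was lost in 3 of the 6 fits that left out a library, and 50 genes were called without superior buccal library 1, of which 31 were higher and 19 lower. LOC106873782, at its mean of 12143 TPM, differed from the other central lobes by 4.95 ± 1.16 (SE) and did not pass (limma, adjusted p = 0.164).

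The test counts few genes, and a description by level gives more. Each inferior frontal library was above each superior buccal library in 1675 genes, 12.2% of those tested, and the reverse held in 273 genes, 1.98%. With the added conditions that each library of the higher lobe had at least 10 TPM and at least 4 times the level of each library of the other lobe, 191 genes remained higher in the inferior frontal lobe, 1.39%, and 8 in the superior buccal lobe, 0.0582%. Without inferior frontal library 1 these numbers were 723 and 43, and on the scale as deposited 23 and 0. Of the 191 genes, 88.5% are annotated as protein coding and 2.09% as long noncoding RNAs, near the 85.7% and 3.98% of all genes tested. The inferior frontal lobe had the highest mean of the 15 neural tissues in 70 of them, 36.6%, against 7.51% of all genes tested, a count that the choice of these genes bears on. A set of 30 genes high in blood relative to neural tissues, some also in the list for white body, moved with this side. It summed to 5172, 6092 and 18860 TPM in inferior frontal libraries, against 1546, 910.7 and 2267 TPM in superior buccal libraries. In the ganglion it summed to 5014 TPM. Of the 30 blood genes, 11 were higher in the inferior frontal lobe at an unadjusted p under 0.05, against 8.3% of all genes tested, none was called and 2 were among the 191; the part of blood in these differences was not tested. Of the 43 tissues other than the 3 described here, blood had the highest mean for 8 of the 191 genes, 4.19%, against 1.59% of all genes tested.

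The 191 genes include some of high level in both deep and shallow libraries. LOC106880888 had 1433, 1485 and 5639 TPM in inferior frontal libraries, against 210.0, 46.2 and 352 TPM in superior buccal libraries, but 153722 TPM in blood. LOC106872507 likewise had 759, 644 and 3427 TPM in inferior frontal libraries, against 124, 85.9 and 142 TPM in superior buccal libraries, and 84864 TPM in blood. In the ganglion they stood at 1401 and 719 TPM.

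LOC106877028 had 877, 6581 and 1836 TPM in inferior frontal libraries, against 170, 127 and 19.1 TPM in superior buccal libraries. LOC106879429 was more even, with 646, 989 and 1048 TPM in inferior frontal libraries, against 94.4, 154 and 143 TPM in superior buccal libraries. LOC106881554 was as even within each lobe, with 524, 462 and 550 TPM in inferior frontal libraries, against 64.2, 43.4 and 76.1 TPM in superior buccal libraries. Even so its limma difference of 3.08 ± 1.75 (SE) had an adjusted p of 0.563. The fit takes its error from all 45 libraries, and this gene reached 4578 TPM in a library of the other central lobes. In the ganglion these genes stood at 966, 526 and 2220 TPM, nearer to the inferior frontal levels.

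In 51 of the 191 genes, 26.7%, all superior buccal libraries were at 0, close to the 26.3% of all genes tested. For 24 of the 51 the lowest inferior frontal library was above what 3 reads would have given in every superior buccal library. LOC106871893 had the largest such bound: it stood at 14.6, 55.9 and 55.3 TPM in inferior frontal libraries, against 0 TPM in all superior buccal libraries, at least 9.47-fold higher by the mean when each superior buccal library is set to 3 reads. LOC106872374, with 40.5, 11.2 and 18.5 TPM in inferior frontal libraries, and LOC106875248, with 26.2, 72.2 and 122 TPM, were at least 6.96-fold and 6.17-fold higher by the same measure. These bounds cover counting error on the superior buccal side only. In inferior frontal library 1 the 3 genes, in the order named, rested on 3, 11 and 2 reads. The ganglion had 17.9, 2.28 and 29.5 TPM of the 3 genes.

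Apart from LOC106873782, the 8 genes separated in the other direction stood at 10.3 to 71.4 TPM in superior buccal libraries. LOC106871082 had 0, 4.91 and 0 TPM in inferior frontal libraries, against 65.8, 36.0 and 25.7 TPM in superior buccal libraries. LOC106878973 was the most even of them, with 0, 1.35 and 0.210 TPM in inferior frontal libraries, against 15.2, 14.8 and 16.5 TPM in superior buccal libraries. LOC106869112 had a single read in inferior frontal library 2 and none in the other 2, against 34.9, 13.2 and 10.8 TPM in superior buccal libraries. The superior buccal values rested on 24, 7 and 3 reads. Its level of 0 in inferior frontal library 1 says little, as 3 reads there would have been 22.8 TPM. LOC106881718, LOC106876874, LOC106881933 and LOC106879348 completed the group. The last 3 were at 0 in inferior frontal library 1, where 3 reads would have been 42.5, 23.9 and 62.3 TPM. In 3 of the 8, 37.5%, the superior buccal lobe had the highest mean of the 15 neural tissues, against 2.98% of all genes tested. The choice of the 8 bears on this count.

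The inferior buccal ganglion, set beside the lobes by its values alone, did not side with the superior buccal lobe over most genes. Over all 13755 genes it lay nearer to the inferior frontal mean in 8121 genes and nearer to the superior buccal mean in 4863 on the log2 scale. Its correlation across genes was 0.655, 0.848 and 0.863 with the inferior frontal libraries, against 0.635, 0.683 and 0.716 with the superior buccal libraries. The higher values belong to the deep libraries, and the ganglion is deep as well; the shallow inferior frontal library gave a value among those of the superior buccal lobe. Among the 191 genes the ganglion was nearer to the inferior frontal lobe in 173, 90.6% against 59.0% of all genes tested, and among the 8 genes in 5. The choice of the 191 by their low superior buccal levels bears on that count. At an unadjusted p under 0.05 in limma, the ganglion was nearer to the inferior frontal lobe in both directions. It was so in 69.2% of the 1142 genes higher in that lobe and in 72.8% of the 173 lower. The 3 called genes went the other way, as all 3 were nearer to the superior buccal level there. So did 15 of the 17 genes higher in the inferior frontal than in the other central lobes, among them LOC106878522, LOC106878234, LOC106884069 and LOC106882479. Over all 13755 genes the count was 4863. The choice of the 17 bears on their count, since the inferior frontal lobe had the highest mean of the 15 neural tissues in all of them. It therefore does not show that the ganglion is like the superior buccal lobe.

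The ganglion library was dominated by 1 gene. LOC106871639 took 343082 TPM there, 34.3% of the library, against 72.9, 59.96 and 0.439 TPM in the inferior frontal lobe and 1.99, 1536 and 4.92 TPM in the superior buccal lobe. Superior buccal library 2 was thus the only one of the 6 lobe libraries above 100 TPM. LOC106876015 had 7131 TPM in the ganglion, against 8.67 to 53.6 TPM in inferior frontal and 3.62 to 17.1 TPM in superior buccal libraries. A library with so large a share in 1 gene has its other TPM pressed down, and the ganglion has no second library to set beside these values.

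A small number of sequences in the table carry names of their own, mainly of peptides. Of 18 such sequences, 9 were listed at 0 in all 7 libraries (AG, AchBP1, AchBP2, AchBP3, Insulin3, NOS, NOXoxygenaseProbeSeq, Sp28 and Sp31), and none of the others passed between the lobes. These 9 were at 0 in every other tissue of the table too, so their level of 0 says nothing about the lobes. Insulin1, by its name a member of the insulin family of peptide hormones, stood at 34.2, 156 and 170 TPM in inferior frontal libraries, against 6.54, 0 and 32.3 TPM in superior buccal libraries. The lobes did not overlap, but inferior frontal library 1 held 2 reads, and the limma difference of 3.96 ± 1.88 (SE, n = 3 each) had an adjusted p of 0.504. In the ganglion it had 12.8 TPM, and its highest mean was 11427 TPM in the posterior subesophageal lobe. Sp12 had 1318, 101 and 27.4 TPM in inferior frontal libraries, against 89.3, 16.6 and 0 TPM in superior buccal libraries (limma, adjusted p = 0.477).

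VLPep3 varied widely within both lobes. It stood at 0, 742 and 69.4 TPM in inferior frontal libraries, against 0, 560 and 12790 TPM in superior buccal libraries, and at 1959 TPM in the ganglion on 4816 reads. The lobes overlapped and the first library of each was at 0. Its difference of -2.37 ± 2.60 (SE; limma, adjusted p = 0.776) was 0.25 without inferior frontal library 1 and 0.66 without superior buccal library 3. GNRH, named after gonadotropin-releasing hormone, had 0, 34.1 and 14.7 TPM in inferior frontal libraries, against 0, 21.7 and 0 TPM in superior buccal libraries. Sp38 had 0, 6.98 and 815 TPM in inferior frontal libraries, against 0, 4.18 and 55.6 TPM in superior buccal libraries, and 334 TPM in the ganglion.

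Betsin was low in both lobes, with 0, 0.431 and 11.4 TPM in inferior frontal libraries, against 0, 0 and 51.0 TPM in superior buccal libraries, and had 209 TPM in the ganglion. IRELamide1 was above 0 in inferior frontal library 3 alone, at 5.84 TPM. IRELamide2 had 0, 0 and 15.6 TPM in inferior frontal libraries, against 0, 5.40 and 10.3 TPM in superior buccal libraries. APGW, named after a short peptide known from molluscan nervous systems, was at 0 in all 6 lobe libraries and had 55.8 TPM in the ganglion on 88 reads, below the 1748 TPM of the olfactory lobe library.

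**Figure D5:**
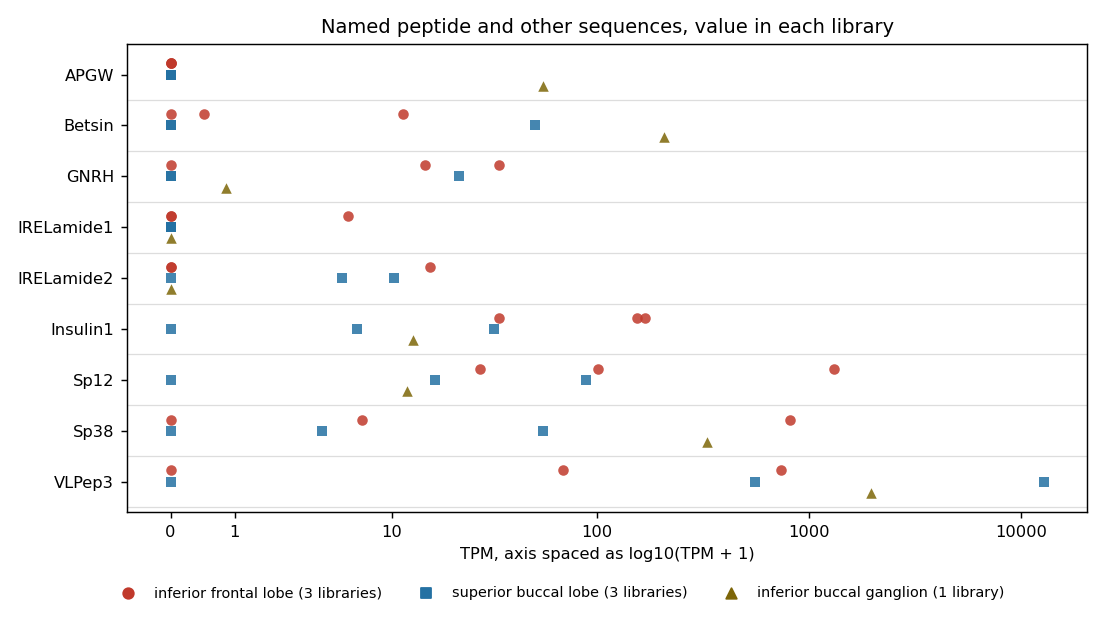
TPM of the 9 named sequences above 0 in any of the 7 libraries, on an axis spaced as log10(TPM + 1); circles are the inferior frontal lobe, squares the superior buccal lobe and triangles the ganglion. The lobes overlap for each sequence but Insulin1, with 34.2 to 170 TPM in the inferior frontal lobe and 0 to 32.3 TPM in the superior buccal lobe, and APGW, which is above 0 in the ganglion alone.

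The most abundant genes were in part shared. LOC106867166 was first in the inferior frontal lobe, with 27890 ± 2330 TPM (SD, n = 3), and the third in the superior buccal lobe, with 26452 ± 8578 TPM (SD, n = 3). LOC106869301 averaged 14394 ± 16536 TPM in the inferior frontal and 42232 ± 33394 TPM in the superior buccal lobe (SD, n = 3 each), with its high inferior frontal value, 33392 TPM, in library 1. The annotated long noncoding RNA LOC106877184 followed the same pattern, with 27379, 2753 and 2615 TPM in inferior frontal libraries, against 32141, 30724 and 10660 TPM in superior buccal libraries. LOC106868274 had 797, 217 and 6303 TPM in inferior frontal libraries, against 4748, 38379 and 41673 TPM in superior buccal libraries. LOC106880020, among the first 5 of the inferior frontal lobe only, had 3509, 18116 and 13833 TPM there, against 441, 2946 and 1220 TPM in superior buccal libraries. Its limma difference of 3.04 ± 1.03 (SE) had an adjusted p of 0.369, and none of these abundant genes passed.

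Over the means of the 15 neural tissues, the genes whose pattern was most like that of LOC106878522 were LOC106884069, with a Pearson r of 0.858, LOC106875633 with 0.851 and LOC106882856 with 0.849, among 9544 genes compared. LOC106884069 is called above, and LOC106882856 had a mean of 21.6 TPM in the inferior frontal lobe, 0 TPM in the superior buccal lobe and at most 5.34 TPM in the other tissues. For LOC106873782 the most similar were LOC106872396 with an r of 0.830, and LOC106877888 and LOC106881105 with 0.798 each. LOC106872396 was at 0.0471 TPM in the inferior frontal lobe, against 12.4 TPM in the superior buccal lobe, at most 8.00 TPM in other tissues, and 0 TPM in the ganglion. These values describe likeness over tissue means that include the lobes themselves.

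The libraries also differ in how they are labelled. All 3 inferior frontal libraries carry 1 style of sample code and all 3 superior buccal libraries another, so style and lobe cannot be told apart within the pair. The codes of libraries 1 to 3 also carry the same letters, C, B and A, in both lobes, and the labels do not say what the letters mean. Among the other central lobes 13 libraries carry the inferior frontal style and 6 the superior buccal style. There LOC106878522 had medians of 0.621 and 2.93 TPM by style, opposite to the difference between the lobes. It was above 0 in only 7 of the 13 and 3 of the 6 libraries, so both medians lie near the floor. With style in the fit its difference between the lobes was 5.68, with an adjusted p of 0.333 in limma. LOC106873782 had medians of 46.9 TPM in the inferior frontal style and 132 TPM in the superior buccal style, the same direction as between the lobes. With style as a term in the fit, 1 gene was called between the lobes, and it was none of the 3 named above.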

How the data were processed

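Whole tissue RNA was sequenced, per the labels, and the deposited values are TPM in a table of 85 libraries, per the file headers. Tools were Trimmomatic 0.32, STAR 2.3, featureCounts and edgeR 3.14.0, per the submitters' processing notes, with no settings; the genome build is not given in the sources used here. From the deposited TPM, 92 spike-in entries were dropped, the transcript of highest mean stood for its gene, and libraries were rescaled. Groups came from the tissue labels. The fit used limma 3.58.1 in R 4.3.3 on log2(TPM + 1), with a mean-variance trend, 45 libraries of 15 neural tissues (30 residual degrees of freedom) and genes at 1 TPM or more in at least 3 libraries. This scale understates the change of low genes.

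Reads were recovered from TPM steps for 15346 of 17545 genes. Among values of fewer than 300 reads, 99.455% came out whole to within 0.05. Recovered genes carried 74.4% to 93.7% of the TPM of the 7 libraries. Recovered reads entered a voom fit of limma, scaled by library totals, as an alternative. Depth limits and the 3 read floor cover counting error only. Scripts were tested on simulated data.

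Named genes were the called ones and, with fewer than 5 in a direction, those of smallest p up to 5, the named sequences, and the 5 of highest mean in each lobe. The 3 genes with the largest bound, the separated genes shown and the ganglion genes were chosen after their values were seen. Lists for an organ were the up to 30 genes with the largest ratio of its mean to the highest mean of any neural tissue, from libraries outside the 7. Other organs did not enter that ratio, so lists of different organs share members. The neural list took the largest ratios of the neural to the non-neural median. The members and lists were chosen with earlier results of these data known. RefSeq assembly ASM119413v2, matched by 15476 of 17527 gene IDs, gave biotypes and gene order only. Lists by protein pattern, and sequences, were not analysed here. The second table was not used.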

Additional observations from a re-analysis of the deposited data

Results flagged for a closer look

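The ganglion library lies outside the tested comparison, and 4 genes in it had at least 1000 TPM and at least 10 times the level of each lobe library. LOC106871639 had 343082 TPM, against a highest lobe value of 1536 TPM in superior buccal library 2. LOC106876015 had 7131 TPM, against at most 53.6 TPM in an inferior frontal and 17.1 TPM in a superior buccal library. LOC106869532 had 4894 TPM, against at most 182 TPM in an inferior frontal and 230 TPM in a superior buccal library, but 5707 TPM in the anterior subesophageal lobe. LOC106870342 had 4568 TPM, against at most 151 TPM in an inferior frontal and 17.5 TPM in a superior buccal library, but 23616 TPM in the mantle. The ganglion has 1 library, so none of these has a replicate check.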

How the results depend on the processing

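Between the lobes 3 genes were called. Calls numbered 14 with a pseudocount of 2, 5 with no filter on low values, 7 on the deposited scale (6 higher, 1 lower), 0 in a fit on both lobes alone, 0 with voom on recovered reads, 1346 with sample quality weights (1215 higher, 131 lower), 1 with label style as a covariate, and 13 without the 2 libraries outside the lobes that stand apart. Quantile scaling called 2 higher and 2 lower. Leaving out 1 lobe library gave 2 to 21 calls. Against the other central lobes the inferior frontal lobe had 21 calls, and 38 with a pseudocount of 2, 12 on the deposited scale, 142 with voom (136 higher, 6 lower), 928 with quality weights and 83 without the 2 libraries; leaving out 1 lobe library gave 14 to 23. Quantile scaling gave 20 higher and 10 lower, and label style as a covariate 6 higher and 12 lower. The superior buccal lobe had 1 call, and 0 with a pseudocount of 0.5, a filter at 5 TPM, the deposited scale or label style, 12 with quantile scaling (11 higher, 1 lower), 88 with quality weights, 3 without the 2 libraries, and 0 to 50 when 1 lobe library was left out.

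Chosen after seeing the data, leaving out both shallow libraries (inferior frontal 1 and superior buccal 3) gave 6 calls between the lobes and 2 for the superior buccal lobe. The genes separated at least 4-fold numbered 191 and 8. They were 1142 and 238 without both shallow libraries, 23 and 0 on the deposited scale, and 191 became 237 to 723 and 8 became 14 to 48 when 1 lobe library was left out. The VLPep3 difference ranged from -6.16 to 0.66 when 1 lobe library was left out, and was above 0 without inferior frontal library 1 (0.25) or superior buccal library 3 (0.66) without both (3.27), and with voom (0.036).

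Same-numbered libraries of the lobes deviated together with correlations of 0.163, -0.10 and 0.282, so the check did not pair all 3 numbers; the best partner had the same number for 2 of 3. Same-numbered libraries also share a letter whose meaning the labels do not give, so whether they are paired is not known. With the replicate block, 6 genes were called in the 45 library fit and 4 in the fit on both lobes alone. The block brought LOC106867670 (limma, adjusted p = 0.00394), LOC106871922 (0.0396) and LOC106871860 (0.0291, and 0.00451 on both lobes alone) past the threshold in the 45 library fit.

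Over 36 gene results and 22 alternatives, 4 values turned direction, all of VLPep3. Depth limits every low value in inferior frontal library 1 and in the superior buccal lobe. The causes of these moves were not tested.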
